A study of Triticum turgidum subsp. durum with 24 samples.

Results

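In leaves of durum wheat (Triticum turgidum), 11 probe sets (PSs) for enzymes that make phosphatidic acid and phosphorylated phosphatidylinositols were followed in 2 cultivars (cv), Ofanto and Cappelli. They were the PSs that the study's annotation matched to 8 Arabidopsis genes, which were At3g15730 (phospholipase D, PLD), At5g07920 and At2g20900 (diacylglycerol kinases), At1g60490 (phosphatidylinositol 3-kinase, PI3K), At4g29380 (AtVPS15), At4g33240 and At3g14270 (phosphatidylinositol phosphate kinases, named PI4p5K) and At1g13640 (a kinase named PI(3,4)K). These were 11 of the 61179 PSs of the GeneChip Wheat Genome Array that are not control PSs. The match for 10 of them came from the study's lists of stress-modulated PSs and that for PI(3,4)K from its text alone, so each PS had already been selected as changing on these same arrays, and a count of changed PSs is not independent evidence of a response. The lists were at hand as shortened copies, and other PSs of the array that could match the same genes, and the genome positions of the PSs, were not analysed here.

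Phosphatidic acid is a lipid messenger of water deficit signalling. PLD releases it by cutting the head group from structural phospholipids, while diacylglycerol kinases make it by phosphorylating diacylglycerol. The inositol ring of phosphatidylinositol is phosphorylated at several positions, and each product recruits its own set of proteins to a membrane. PI3K makes phosphatidylinositol 3-phosphate (PI3P), which marks endosomes, vacuoles and autophagic membranes. In Arabidopsis PLD activity and PI3P have both been tied to the abscisic acid control of stomata.

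The 24 arrays fell into 8 groups of 3 arrays, 1 for each cultivar and treatment. Control (Ctrl) plants were kept at 28% soil water content and 19 °C. Drought stress (DS) was 12.5% soil water content at 19 °C, heat stress (HS) was a stepwise rise to 40 °C at 28%, and combined stress (CS) joined 12.5% and 40 °C. By the methods DS leaves were taken 3 days after the stress was imposed and HS leaves after a longer stepwise rise. Time under stress therefore differed between DS and HS. RNA came from whole leaves, described as flag leaves at booting in the methods and as the stage of 3 expanded leaves in the sample labels. The sample descriptions of Ofanto control replicates 2 and 3 carry the text of the drought treatment, while their titles say control. They were used as control. The methods describe a randomized block design and call the triplicates biological, without saying which block or plants a replicate number stands for.

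All values are MAS5 signals, a linear brightness in which each array was scaled to the same trimmed mean (500.3 on these arrays). A change is the difference of the mean log2 signals, with its standard error (SE), from 1 limma model over the 8 groups, and p was adjusted by Benjamini-Hochberg over 28072 PSs. A PS is said to have risen or fallen where adjusted p was under 0.01 and the change was at least 2-fold. All 11 PSs passed the filter on low signals, which kept a PS if its signal exceeded the 60th percentile of the array (106.9 to 143.9) on all 3 arrays of at least 1 group. A PS that entered only through the group in which it was high had to differ from a dim group. PLD Ta.11144.1.A1_at and diacylglycerol kinase Ta.3876.1.A1_at passed through several groups, Cappelli Ctrl among them. In both, however, none of the 3 Ofanto control arrays lay above that percentile, so the size of a change from Ofanto Ctrl is uncertain.

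Other measures differed between the groups. The summed signal of 5 chlorophyll- and rubisco-annotated leaf PSs ranged from 258000 to 296000 in Ofanto Ctrl and from 130000 to 162000 in Ofanto CS. In Cappelli it ranged from 164000 to 187000 in Ctrl and from 79800 to 101000 in HS. The Cappelli CS arrays differed more among themselves, from 102000 in replicate 1 to 174000 in replicate 3. Replicate 3 thus lay within the range of the Cappelli controls. The sum of 3 PSs annotated to anther or pollen ran from 6230 to 12100 over all arrays. The control PSs for the spiked Bacillus dap, lys, phe and thr transcripts had a mean log2 signal of 11.6 in Ofanto Ctrl, 12.6 in Ofanto CS and 10.8 in Ofanto HS, and of 10.3 in Cappelli Ctrl, 10.7 in Cappelli HS and 11.4 in Cappelli CS. The part of these measures in the results was not tested, and a change in the cell types of the leaf cannot be told apart from a change in RNA per cell.

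Most of the PSs that rose did so under HS or CS, more of them under HS in Cappelli and under CS in Ofanto, and few calls were made under DS. In Cappelli HS 8 of the 11 PSs rose and none fell, where 11.2% of all tested PSs rose and 13.6% fell. In Ofanto HS 3 PSs rose, where 10.4% of all PSs rose and 7.46% fell. Under CS the order was the other way round, as 6 PSs rose in Ofanto (14.4% of all PSs rose and 19.7% fell) and 4 in Cappelli (9.89% rose and 11.8% fell). Under DS a single PS rose in Ofanto (2.67% of all PSs rose and 1.13% fell), and none was called in Cappelli, where 0.891% of all PSs rose and 0.445% fell. In Cappelli DS 1 of the 11 PSs had an unadjusted limma p under 0.05, as had 21.2% of all PSs. The methods' t-test, which is Welch's test PS by PS, called 0 there, but it also called 0 of the 11 in Ofanto HS, Cappelli HS and Cappelli CS, so its counts of 0 are not informative about these PSs.

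The median change of the 11 PSs was 0.80 on the log2 scale in Ofanto HS, 1.34 in Ofanto CS, 1.12 in Cappelli HS and 0.79 in Cappelli CS. The medians over all tested PSs for the same comparisons were 0.02, -0.17, -0.02 and -0.06. The medians of the 11 PSs under DS were 0.13 in Ofanto and -0.18 in Cappelli. The adjusted p alone, without the 2-fold minimum, was passed upward by 11 of 11 PSs in Ofanto CS (21.6% of all PSs) and by 10 of 11 in Cappelli HS (19.2% of all PSs).

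**Figure D1:**
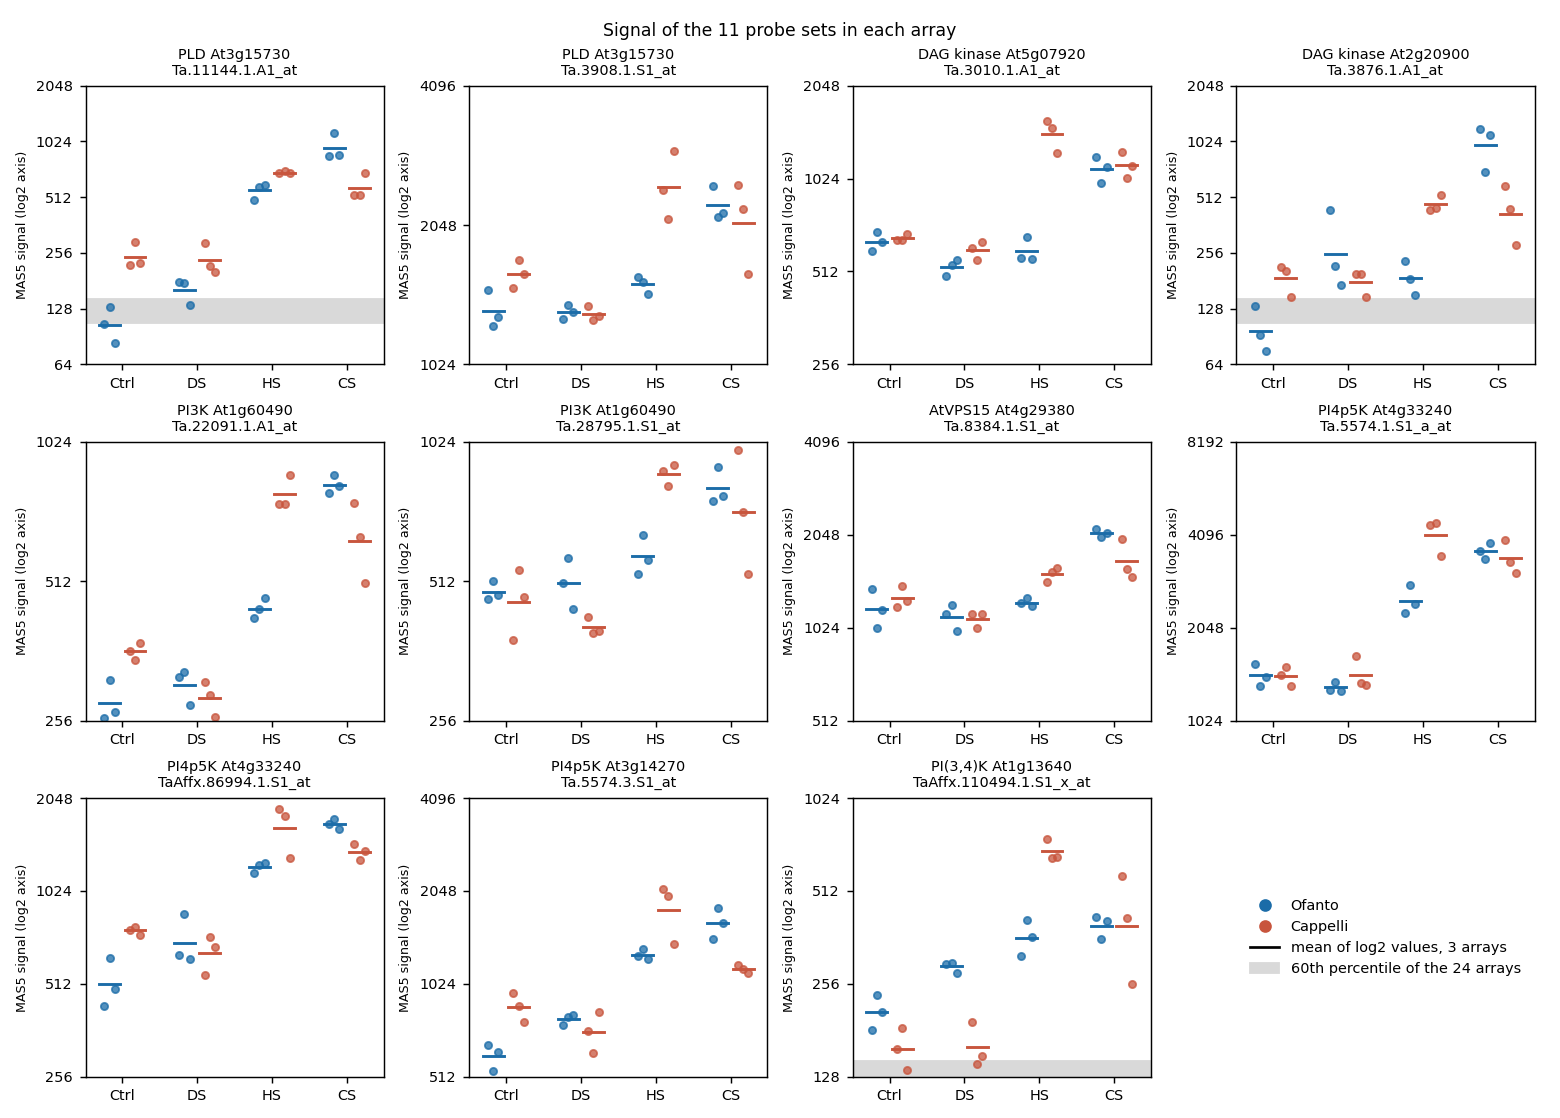
MAS5 signal (log2 axis) of each of the 11 PSs in every array, by treatment and cultivar. Points are arrays, bars are the means of the 3 log2 values and the grey band is the 60th percentile of the 24 arrays (106.9 to 143.9). Ofanto CS and Cappelli HS are the 2 highest groups for most PSs.

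By group mean, Cappelli HS was the highest of the 8 groups for 6 PSs and Ofanto CS for 5. The lowest group was Ofanto Ctrl for 5 PSs, Cappelli DS for 3, Ofanto DS for 2 and Cappelli Ctrl for 1. The mean log2 profile of the 11 PSs, each centred on its own mean over the 8 groups, ran from -0.71 in Ofanto Ctrl through 0.05 in Ofanto HS to 0.80 in Ofanto CS. In Cappelli it ran from -0.38 in Ctrl to 0.77 in HS and 0.45 in CS. The 3 Cappelli CS arrays were spread more widely than any other group, with a median SD over the 11 PSs of 0.23 log2 units. Replicate 1 was the highest of them for 10 PSs and replicate 3 the lowest for 8. By the sum of leaf PSs given above, replicate 1 was the lowest of these 3 arrays and replicate 3 the highest. A link between these orders was not tested.

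Phospholipase D was represented by 2 PSs, of which 1 was called under HS and CS. Ta.11144.1.A1_at had signals of 106, 130.3 and 83.8 in Ofanto Ctrl, 496, 582 and 597 in HS and 856, 1142 and 870.4 in CS. In Cappelli the same PS gave 221, 292 and 225 in Ctrl, 688, 706 and 691 in HS and 523, 529 and 695 in CS. No array of either heat treatment overlapped the controls of its cultivar, and the Ofanto controls were the dimmest arrays of all.

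The PS rose by 2.41 (SE 0.19, adjusted p = 1.8e-08) in Ofanto HS and by 3.17 (SE 0.19, adjusted p = 9.9e-11) in Ofanto CS. Because the Ofanto controls were not above the 60th percentile, these changes have a lower bound only, of at least 3.97-fold and at least 6.76-fold when each control array is set to that percentile. In Cappelli it rose by 1.51 (SE 0.19) in HS and 1.24 (SE 0.19) in CS. Its signal was 179, 176 and 134 in Ofanto DS, a change of 0.62 (SE 0.19, adjusted p = 0.031) that was not called although no array overlapped the controls.

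The second PLD PS, Ta.3908.1.S1_at, was bright in every group and was called in none of the 19 comparisons. Its signals were 1479, 1242 and 1295 in Ofanto Ctrl and 2487, 2129.8 and 2178 in Ofanto CS. In Cappelli they were 1494, 1721 and 1607 in Ctrl and 2439, 2112 and 2958 in HS. Both pairs of groups were separate, but the changes of 0.76 (SE 0.14, adjusted p = 0.00018) in Ofanto CS and 0.63 (SE 0.14, adjusted p = 0.0013) in Cappelli HS were under 2-fold.

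Diacylglycerol kinases, the second route to phosphatidic acid, were represented by 2 PSs. Ta.3010.1.A1_at, matched to At5g07920, gave 595, 688 and 639 in Ofanto Ctrl, 567, 660.2 and 563 in HS and 1199.7, 992 and 1115 in CS. In Cappelli it gave 649, 647 and 677 in Ctrl, 1576, 1490.2 and 1236 in HS and 1246, 1032 and 1122 in CS. Ofanto HS overlapped its control, while every Cappelli HS array was above every Ofanto HS array.

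This PS rose by 1.12 (SE 0.11, adjusted p = 2.3e-07) in Cappelli HS and had a change of -0.10 (SE 0.11, adjusted p = 0.49) in Ofanto HS. The difference between these responses was itself tested, and the Ofanto response was lower by 1.22 (SE 0.16, limma adjusted p = 3.1e-05). Under CS the change was 0.78 (SE 0.11) in both cultivars, under the 2-fold minimum. Under DS it was -0.27 (SE 0.11) in Ofanto and -0.13 (SE 0.11) in Cappelli, and neither passed the adjusted p.

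Ta.3876.1.A1_at, matched to the putative diacylglycerol kinase At2g20900, was the PS with the largest change among the 11 in Ofanto CS. It gave 132, 92.0 and 75.2 in Ofanto Ctrl, 439, 219 and 171 in DS, 232, 185 and 152 in HS and 1199.5, 698 and 1110.1 in CS. The Cappelli signals were 215, 206 and 147 in Ctrl, 196, 198 and 148 in DS, 434, 447 and 527 in HS and 585, 443 and 282 in CS. The Ofanto CS arrays stood above every other array of the series, and the standard error of its changes was the highest of the 11 PSs.

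The PS rose by 3.33 (SE 0.33, adjusted p = 8e-08) in Ofanto CS, or at least 6.96-fold with the controls set to the 60th percentile. It was the only one of the 11 PSs that rose in Ofanto DS, by 1.39 (SE 0.33, adjusted p = 0.0074). Set against the 60th percentile this was at least 1.81-fold, and the call was lost without control replicate 2 (1.35, adjusted p = 0.026), without control replicate 3 (1.21, adjusted p = 0.041), without DS replicate 1 (0.99, adjusted p = 0.049) or without DS replicate 2 (1.50, adjusted p = 0.015). In Cappelli it rose by 1.32 (SE 0.33, adjusted p = 0.0025) in HS and 1.16 (SE 0.33, adjusted p = 0.007) in CS. The CS call was lost on leaving out any of the 3 controls or CS replicate 1 or 2, with adjusted p from 0.012 to 0.044, and the HS call on leaving out control replicate 3 (adjusted p = 0.016) or HS replicate 3 (adjusted p = 0.012).

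The PI3P route comprised 2 PI3K PSs and AtVPS15, the protein kinase that holds PI3K in its active complex on membranes. Ta.22091.1.A1_at gave 259.7, 313 and 268 in Ofanto Ctrl, 426, 445 and 470.0 in HS and 793, 868 and 821 in CS. For Cappelli the arrays read 362, 347 and 377 in Ctrl, 753, 752 and 871 in HS and 755, 638 and 507 in CS. The Ofanto groups formed 3 separate steps, whereas the Cappelli HS and CS arrays overlapped.

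Ta.22091.1.A1_at rose by 1.57 (SE 0.13, adjusted p = 7.6e-09) in Ofanto CS and by 1.13 (SE 0.13, adjusted p = 9.1e-07) in Cappelli HS. Its changes of 0.68 (SE 0.13, adjusted p = 0.00034) in Ofanto HS and 0.79 (SE 0.13, adjusted p = 6.1e-05) in Cappelli CS stayed under 2-fold. The other PI3K PS, Ta.28795.1.S1_at, was called in none of these. It gave 469.8, 512 and 478 in Ofanto Ctrl against 762, 905 and 782 in CS, and 382, 542 and 473 in Cappelli Ctrl against 887, 822 and 913 in HS. These groups did not overlap, and the changes were 0.74 (SE 0.17, adjusted p = 0.0012) and 0.92 (SE 0.17, adjusted p = 0.00023).

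AtVPS15, Ta.8384.1.S1_at, changed least in Cappelli HS of all 11 PSs. It gave 1371, 1022 and 1170.2 in Ofanto Ctrl, 1227, 1276 and 1202 in HS and 2137, 2014 and 2081 in CS. Cappelli arrays gave 1199, 1396 and 1245 in Ctrl, 1437, 1549.6 and 1600.3 in HS and 1981, 1590.0 and 1500.2 in CS. Ofanto CS lay above all other arrays, with a change of 0.82 (SE 0.12, adjusted p = 1.3e-05) that was under 2-fold, and the change in Cappelli HS was 0.26 (SE 0.12, adjusted p = 0.085).

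The 3 PI4p5K PSs stand for enzymes that add a further phosphate to a phosphatidylinositol phosphate. In Arabidopsis At4g33240 and At3g14270 are known as FAB1A and FAB1B, which act on PI3P at endosomes and the vacuole. Ta.5574.1.S1_a_at and Ta.5574.3.S1_at carry the same cluster number, and the suffix of the first marks probes shared by several transcripts, so the readings may not be independent. Ta.5574.1.S1_a_at, matched to At4g33240, gave 1566, 1329.9 and 1419.9 in Ofanto Ctrl, 2288, 2823 and 2439.8 in HS and 3629, 3430.1 and 3857 in CS. In Cappelli it gave 1434, 1533 and 1324 in Ctrl, 4392, 4469.9 and 3506 in HS and 3934, 3334 and 3083 in CS. The controls of the cultivars overlapped, and all Cappelli HS arrays were above all Ofanto HS arrays.

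Ta.5574.1.S1_a_at rose by 1.34 (SE 0.13, adjusted p = 4.9e-08) in Ofanto CS, 1.52 (SE 0.13, adjusted p = 1.9e-08) in Cappelli HS and 1.27 (SE 0.13, adjusted p = 2.4e-07) in Cappelli CS. In Ofanto HS the change was 0.80 (SE 0.13, adjusted p = 5.5e-05), under 2-fold. The second PS matched to At4g33240, TaAffx.86994.1.S1_at, rose in Ofanto HS (1.26, SE 0.16), Ofanto CS (1.73, SE 0.16) and Cappelli HS (1.11, SE 0.16). Its signals were 435, 623 and 493 in Ofanto Ctrl, 1169.7, 1242 and 1262 in HS and 1693, 1752 and 1626 in CS. Those of Cappelli were 764, 785 and 739.7 in Ctrl, 1890.5, 1789.6 and 1315 in HS and 1453, 1289 and 1377 in CS, with every control of Cappelli above every control of Ofanto.

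In CS 6 of the 11 PSs had every Ofanto array above every Cappelli array, as had 21% of all PSs. Ta.5574.3.S1_at, matched to At3g14270, was among them, though its difference in level was not called. It gave 651, 534 and 616 in Ofanto Ctrl, 1263, 1326 and 1229 in HS and 1431, 1807 and 1616 in CS. The Cappelli signals were 960.0, 866 and 772 in Ctrl, 2077, 1974 and 1377 in HS and 1183, 1145 and 1108 in CS. The Cappelli CS arrays lay below those of Cappelli HS and below those of Ofanto CS.

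The PS rose by 1.09 (SE 0.15, adjusted p = 1.1e-05) in Ofanto HS, 1.43 (SE 0.15, adjusted p = 1.5e-07) in Ofanto CS and 1.05 (SE 0.15, adjusted p = 1.1e-05) in Cappelli HS. Its change in Cappelli CS was 0.41 (SE 0.15, adjusted p = 0.03). The Cappelli HS call fell under 2-fold without control replicate 3 (0.97), HS replicate 1 (0.93) or HS replicate 2 (0.97).

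The PI(3,4)K PS is annotated as a member of the phosphatidylinositol 3- and 4-kinase family. The suffix of its name (x) marks probes that can bind several transcripts. It gave 181, 235 and 207 in Ofanto Ctrl, 315, 413 and 363 in HS and 422, 358 and 408 in CS. For Cappelli the arrays read 157, 184 and 135 in Ctrl, 753, 654 and 661 in HS and 571, 419 and 256 in CS. Cappelli HS stood above all other arrays, and Ofanto HS and CS overlapped.

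PI(3,4)K rose by 2.13 (SE 0.21, adjusted p = 1.8e-07) in Cappelli HS, the largest change of the 11 PSs in that comparison, and by 1.33 (SE 0.21, adjusted p = 5.2e-05) in Cappelli CS. As 2 of the 3 Cappelli controls were above the 60th percentile, setting the other to it gave at least 4.34-fold and at least 2.49-fold. The Cappelli CS arrays of this PS were widely spread, with an SD of 0.58 log2 units. With only Cappelli CS and Ctrl in the limma model the CS call was lost (adjusted p = 0.022). In Ofanto the changes were 0.81 (SE 0.21, adjusted p = 0.005) in HS and 0.93 (SE 0.21, adjusted p = 0.00097) in CS, both under 2-fold.

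**Figure D2:**
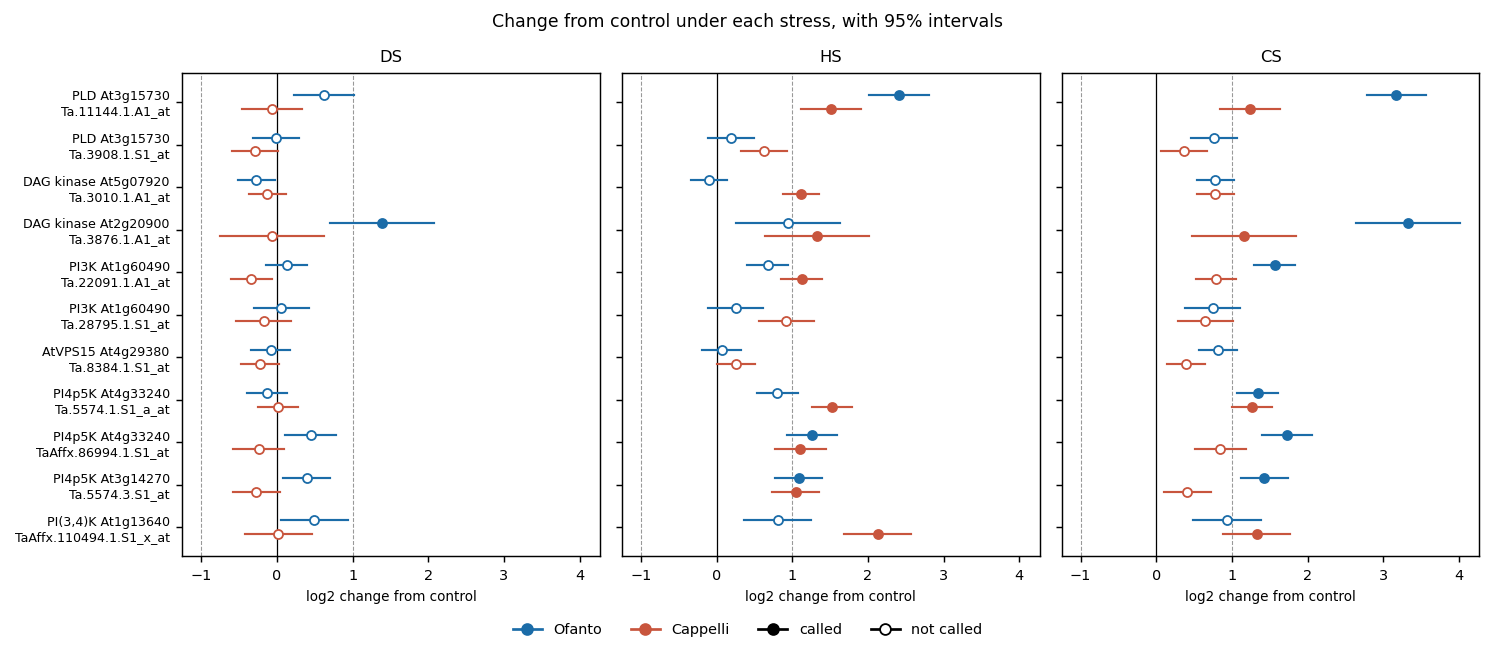
Log2 change from control of the 11 PSs under DS, HS and CS in each cultivar, from the limma model. Points are changes, lines are 95% intervals, filled points passed both thresholds and dashed lines mark a 2-fold change. In HS 8 Cappelli PSs and 3 Ofanto PSs are filled, and in CS 4 and 6.

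A difference between the cultivars under heat was read in 2 ways, as a difference of levels and as a difference of responses. In HS all 11 PSs had a lower mean in Ofanto than in Cappelli, and for all 11 the 3 Ofanto arrays lay below the 3 Cappelli arrays, a separation that 26.7% of all tested PSs showed in that direction. The median difference was -0.70, against 0.06 for all PSs. Both thresholds were passed by 2 of them (9.24% of all PSs were lower and 11.4% higher in Ofanto), namely the diacylglycerol kinases Ta.3010.1.A1_at (-1.26, SE 0.11, adjusted p = 1.1e-07) and Ta.3876.1.A1_at (-1.33, SE 0.33, adjusted p = 0.0029). The second call was lost without Ofanto HS replicate 3 (-1.18, adjusted p = 0.017) or Cappelli HS replicate 3 (-1.24, adjusted p = 0.014), which left 1 PS called.

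The response to HS differed between the cultivars for 2 of the 11 PSs, where 5.33% of all tested PSs had a lower and 8.39% a higher response in Ofanto. These were Ta.3010.1.A1_at (-1.22, as above) and PI(3,4)K (-1.32, SE 0.30, adjusted p = 0.003). The PI(3,4)K call was lost without the filter (adjusted p = 0.014), with arrays centred on their median (-1.19, adjusted p = 0.013) and without Ofanto control replicates 2 and 3 (-1.13, adjusted p = 0.043). For Ta.5574.1.S1_a_at the Ofanto response was lower by a log2 difference of -0.72 (SE 0.18, adjusted p = 0.0058), under the 2-fold minimum. The 2 PSs called in both cultivars with near values were TaAffx.86994.1.S1_at, whose response difference had a 95% interval of -0.32 to 0.62, and Ta.5574.3.S1_at, with -0.40 to 0.48. PLD Ta.11144.1.A1_at went the other way, with a difference of 0.90 (SE 0.27, adjusted p = 0.016) that was not called, though it was after median centring (1.02, adjusted p = 0.0099). All 3 Ofanto controls of this PS were under the 60th percentile of their array, so the size of this difference is uncertain. Set to that percentile, they gave a log2 change of 1.99 in Ofanto HS.

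In control leaves 1 PS was called between the cultivars, where 9.09% of all PSs were lower and 6.42% higher in Ofanto. This was PLD Ta.11144.1.A1_at, lower in Ofanto by a log2 difference of -1.22 (SE 0.19, adjusted p = 5.7e-05), but all 3 Ofanto controls were under the 60th percentile of their array. Set to that percentile, they put Cappelli at least 1.74-fold higher, under the 2-fold minimum, and with log2(signal + 50) the difference was -0.92 and no longer called. The PI4p5K PSs TaAffx.86994.1.S1_at (-0.58, SE 0.16, adjusted p = 0.0076) and Ta.5574.3.S1_at (-0.53, SE 0.15, adjusted p = 0.0084) were lower in Ofanto by less than 2-fold. In DS the limma model called 0 of the 11 PSs between the cultivars, where 5.12% of all PSs were higher and 5.16% lower in Ofanto. There 2 PSs had an unadjusted p under 0.05, where 39.6% of all PSs had, and the methods' t-test called 0, as it did between the cultivars in the other treatments. Leaving out Cappelli DS replicate 1 added 1 call, PI(3,4)K, at 1.01 (adjusted p = 0.0049).

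In CS 1 of the 11 PSs was called between the cultivars and was higher in Ofanto, a share near that of all PSs (5.62% were higher and 10.1% lower). This was diacylglycerol kinase Ta.3876.1.A1_at, at 1.22 (SE 0.33, adjusted p = 0.0062). The call was lost on leaving out Ofanto CS replicate 1 (1.07, adjusted p = 0.031), Ofanto CS replicate 3 (1.13, adjusted p = 0.026), Cappelli CS replicate 2 (1.27, adjusted p = 0.015) or Cappelli CS replicate 3 (0.94, adjusted p = 0.039), and also without the filter (adjusted p = 0.02) or with only these groups in the model (adjusted p = 0.051). PLD Ta.11144.1.A1_at differed by 0.72 (SE 0.19, adjusted p = 0.0053), under 2-fold.

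**Figure D3:**
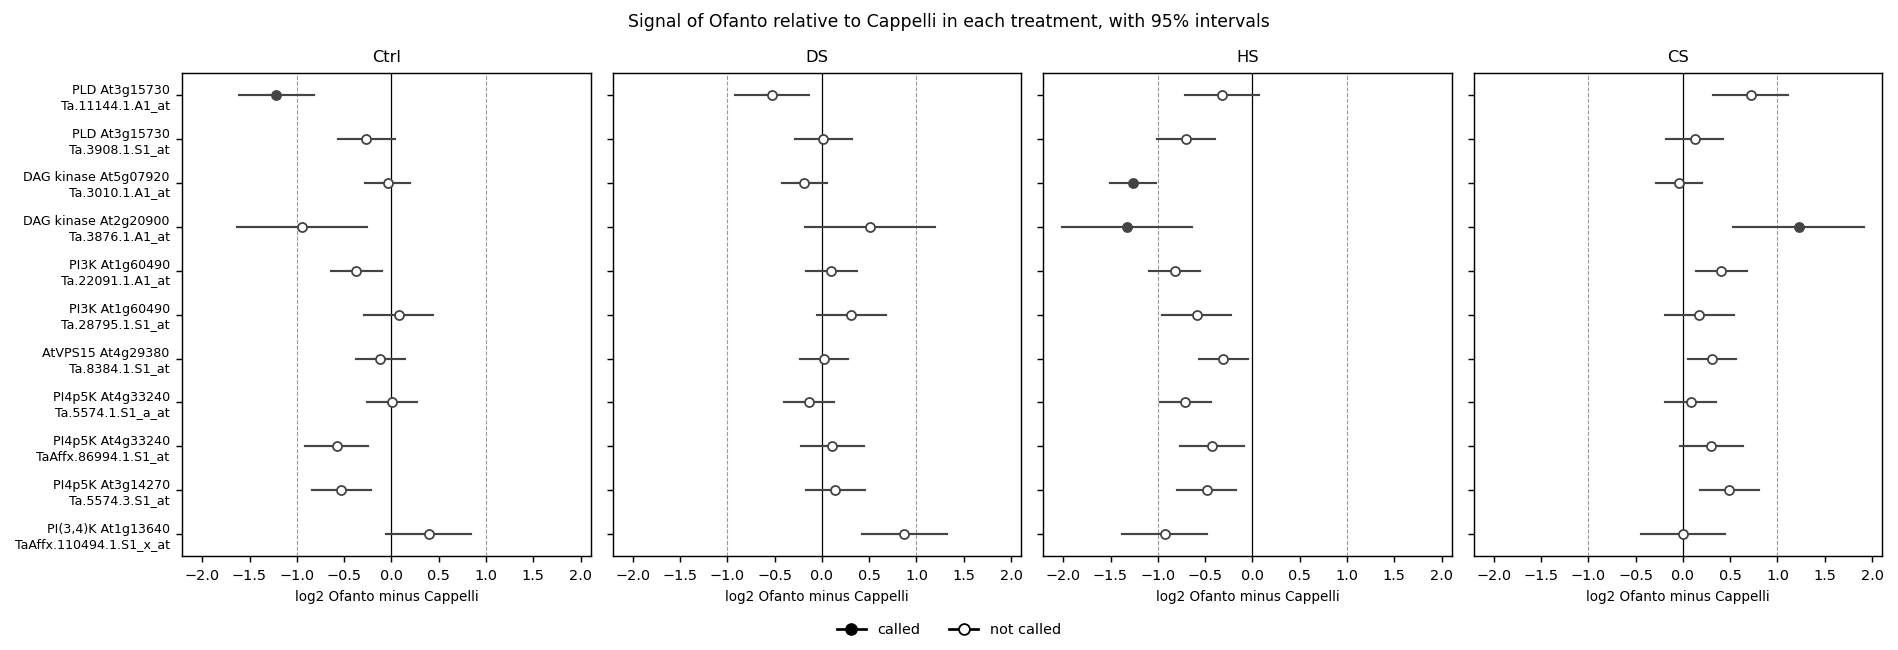
Log2 signal of Ofanto minus that of Cappelli for the 11 PSs in each treatment, with 95% intervals. Filled points passed both thresholds and dashed lines mark 2-fold. All 11 points are below 0 in HS, and 10 of 11 are above it in CS.

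The response to CS differed between the cultivars for 3 of the 11 PSs, all larger in Ofanto, where 8.33% of all tested PSs had a larger response in Ofanto and 9.72% a smaller one. The differences were 1.93 (SE 0.27, adjusted p = 2.6e-05) for PLD Ta.11144.1.A1_at, 2.17 (SE 0.46, adjusted p = 0.0014) for diacylglycerol kinase Ta.3876.1.A1_at and 1.02 (SE 0.21, adjusted p = 0.001) for PI4p5K Ta.5574.3.S1_at. No Ofanto control array was above the 60th percentile for the first 2 of these, and with the controls set to it the differences were at least 2.86-fold and at least 3.11-fold. Without Ofanto control replicates 2 and 3 the calls of Ta.3876.1.A1_at (1.72, adjusted p = 0.033) and Ta.5574.3.S1_at (0.90, adjusted p = 0.018) were lost. The PI4p5K difference fell under 2-fold without Ofanto control replicate 2 (0.94), Cappelli control replicate 1 (0.94), Ofanto CS replicate 2 (0.94) or Cappelli CS replicate 3 (1.00, adjusted p = 0.0025), and also with log2(signal + 50) (0.97) or quantile normalization (0.95). Ta.3010.1.A1_at had the same change of 0.78 in both cultivars, the difference having a 95% interval of -0.34 to 0.34. For the response to DS the limma model called 0 of 11 (2.88% of all PSs had a larger and 1.21% a smaller response in Ofanto), and 5 PSs had an unadjusted p under 0.05, where 25.4% of all PSs had.

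Combined stress was also set against each single stress. Against DS, which shares the dry soil, 7 PSs were higher in Ofanto CS (11.7% of all PSs rose and 18.3% fell) and 6 in Cappelli CS (7.83% rose and 9.4% fell), and none of the 11 was called lower. The Cappelli count was 4 to 7 over the arrays left out in turn, and the call of Ta.3876.1.A1_at (1.22, SE 0.33, adjusted p = 0.0058) was lost without any DS array or without CS replicate 1 or 2 (adjusted p from 0.012 to 0.039). All 3 CS arrays were above all 3 DS arrays for 11 of 11 PSs in both cultivars, a separation shown upward by 27.5% of all PSs in Ofanto and 23.9% in Cappelli. Against HS, which shares the chamber temperature, each cultivar was read on its own, and the difference between the cultivars in this step was not tested. In both cultivars the paper measured warmer leaves with a lower relative water content in CS than in HS. In CS the leaves of Cappelli were warmer and drier than those of Ofanto. In Ofanto all 11 changes were positive, with a median of 0.57, and 1 passed both thresholds (6.73% of all PSs rose and 13.1% fell), Ta.3876.1.A1_at at 2.39 (SE 0.33, adjusted p = 1.3e-05).

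Of the remaining Ofanto PSs, the next largest changes from HS to CS were 0.89 for both Ta.3010.1.A1_at (SE 0.11, adjusted p = 6.5e-06) and PI3K Ta.22091.1.A1_at (SE 0.13, adjusted p = 2.2e-05). In all 7 of the 11 passed the adjusted p alone (12.3% of all PSs). In Cappelli 10 of 11 changes were negative, with a median of -0.27 and AtVPS15 the exception at 0.14 (SE 0.12). The limma model called 0 of them (0.52% of all PSs rose and 0.399% fell), 4 had an unadjusted p under 0.05 (23.2% of all PSs had), and the methods' t-test called 0, as it did in Cappelli HS against Ctrl. PI(3,4)K at -0.80 (SE 0.21, adjusted p = 0.029) and Ta.5574.3.S1_at at -0.64 (SE 0.15, adjusted p = 0.015) were the PSs whose arrays did not overlap. Such a separation downward was shown by 12.7% of all PSs. Without Cappelli CS replicate 1, PI(3,4)K was called at -1.07 (adjusted p = 0.0016).

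The last comparison asked whether the log2 change in CS differed from the sum of the changes in DS and HS. In Ofanto 1 of 11 PSs exceeded the sum (5.79% of all tested PSs did, and 12.5% fell short), which was Ta.3010.1.A1_at by 1.16 (SE 0.16, adjusted p = 3.3e-05). AtVPS15 (0.83, SE 0.17, adjusted p = 0.0011), PI3K Ta.22091.1.A1_at (0.76, SE 0.18, adjusted p = 0.0033) and Ta.5574.1.S1_a_at (0.67, SE 0.18, adjusted p = 0.0073) exceeded it by less than 2-fold. For PLD Ta.11144.1.A1_at the difference was 0.14 with a 95% interval of -0.41 to 0.70. As no Ofanto control array of this PS was above the 60th percentile, the size of this difference is uncertain. In Cappelli 0 of 11 PSs were called by limma (0.289% of all PSs exceeded the sum and 0.271% fell short), and 1 had an unadjusted p under 0.05, where 16.1% of all PSs had.

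**Figure D4:**
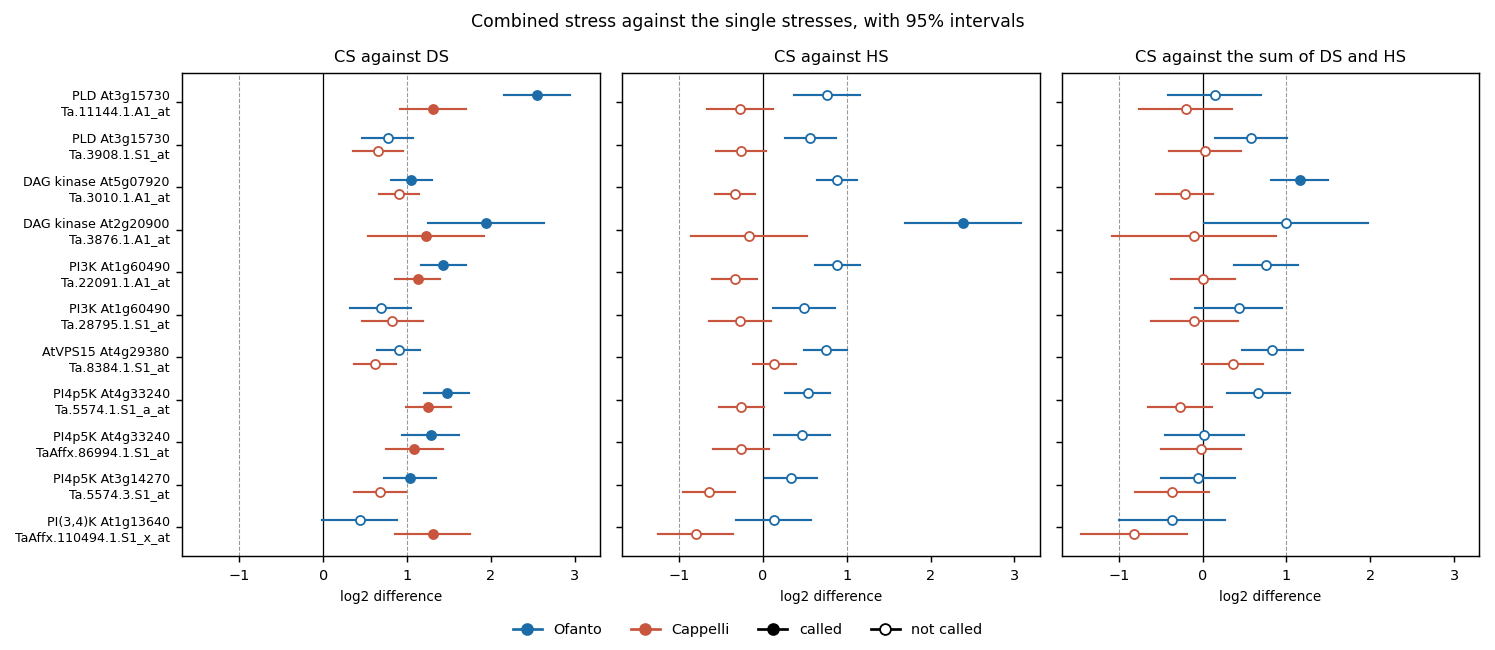
Log2 difference between CS and DS, between CS and HS, and between the CS change and the sum of the DS and HS changes, with 95% intervals, for the 11 PSs. Filled points passed both thresholds and dashed lines mark 2-fold. Against HS all 11 Ofanto points are above 0 and 10 of 11 Cappelli points are below it.

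The profiles of the 11 PSs were alike over the 8 group means. The correlation of each PS with the mean of the other 10 ran from 0.82 for PI(3,4)K to 0.99 for PI3K Ta.22091.1.A1_at. Points of the same array share its scaling, and the study had placed several of these PSs in 1 cluster by profile, so the likeness is a description only. The study's lists were at hand only as shortened copies, in which 1736 other genes had a PS past the filter. Among these, the 5 PSs nearest to the mean profile had correlations of 0.99 to 1.00 over the 8 groups. They were matched to a glycine-rich protein (At4g22740), 2 expressed proteins (At1g17080 and At5g11680), the AP2 domain protein RAP2.1 (At1g46768) and an SGS domain protein (At1g30070).

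A further 14 PSs of phospholipid metabolism, storage lipid synthesis and PI3P sorting were taken by annotation words from the shortened copies of the study's lists. All 14 passed the filter. As these lists hold PSs chosen on these arrays, the counts describe them only. In Ofanto CS 6 rose and 3 fell, where 14.4% of all PSs rose and 19.7% fell. In Cappelli HS 7 rose and none fell (11.2% and 13.6% of all PSs). In Cappelli CS 4 rose and 4 fell (9.89% and 11.8% of all PSs). Without Cappelli CS replicate 3, a setting chosen after seeing the data, 5 rose and 2 fell in Cappelli CS. In Ofanto HS 2 rose and 1 fell (10.4% and 7.46% of all PSs), and in Ofanto DS 1 rose (2.67%). In Cappelli DS limma called 0 of them (0.891% of all PSs rose and 0.445% fell). There 4 had an unadjusted limma p under 0.05, 3 of them downward, where 21.2% of all PSs had one.

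Among 5 PSs of turnover and other kinases, a PS annotated only as a diacylglycerol kinase family protein fell, and the annotation does not give its substrate. Ta.11571.1.A1_at (At5g23450) gave 1497, 1166 and 1369 in Ofanto Ctrl, 532, 363 and 372 in HS and 214, 176 and 223 in CS. The 3 groups formed separate steps downward. It fell by 1.68 (SE 0.20) in Ofanto HS and fell by 1.29 (SE 0.20) in Cappelli CS. In Ofanto CS it fell by 2.72 (SE 0.20, adjusted p = 2.2e-09), and the CS response differed between the cultivars by -1.43 (SE 0.29, adjusted p = 0.00086). The inositol polyphosphate phosphatase FRY1/SAL1 PS, Ta.12733.1.S1_at, is matched to an enzyme known in Arabidopsis as a negative regulator of drought tolerance, and it fell in Ofanto CS by 1.80 (SE 0.30, adjusted p = 3.9e-05). Its signals there were 55.1, 108 and 38.4, all under the 60th percentile of their array so that the size of the fall is uncertain, against 246, 185 and 212 in Ctrl and 309, 533 and 523 in DS. The PI 3- and 4-kinase family PS Ta.14434.2.S1_a_at (At2g46500) rose by 1.03 (SE 0.19) in Ofanto CS and fell by 1.04 (SE 0.19) in Cappelli CS, a change of -0.89 that was under 2-fold without Cappelli CS replicate 3. Ta.7820.1.S1_at, annotated as a MORN repeat protein related to phosphatidylinositol-4-phosphate 5-kinase, rose in Ofanto CS (1.40, SE 0.15) and Cappelli HS (1.15, SE 0.15). Ta.4495.1.S1_a_at, annotated as phosphatidic acid phosphatase-related, was called in none of these comparisons.

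A group of 4 PSs stood for readers of PI3P and for retromer, the coat that sorts cargo from endosomes. The FYVE zinc finger PS Ta.205.1.S1_at, whose domain binds PI3P, gave 878, 1038 and 836 in Ofanto Ctrl, 1046, 1005 and 1106 in HS and 2186, 2221 and 2502 in CS. Cappelli arrays gave 861, 1187 and 819 in Ctrl and 2515, 2501 and 2769 in HS. As with Ta.3010.1.A1_at, Cappelli HS was high and Ofanto HS near its control, and the response to HS was lower in Ofanto by a log2 difference of -1.26 (SE 0.27, adjusted p = 0.002). The VPS35 PS Ta.10271.1.S1_at rose in Cappelli HS (1.08, SE 0.09). The 2 VPS26 PSs share a cluster number, rose in Ofanto HS (1.13, SE 0.16 and 1.63, SE 0.15) and had changes of -1.21 (SE 0.16) and -1.10 (SE 0.15) in Cappelli CS, where both fell, the second by less than 2-fold (-0.96) without replicate 3. In control leaves both were lower in Ofanto, by log2 differences of -1.30 (SE 0.16) and -1.73 (SE 0.15).

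Among 5 PSs of phospholipid and storage lipid synthesis, 4 rose in Cappelli HS (11.2% of all PSs rose). In Cappelli CS 3 rose (9.89% of all PSs), and in Ofanto CS 3 rose and 1 fell (14.4% and 19.7% of all PSs). Both diacylglycerol acyltransferase PSs were among those that rose in each of these groups. The acyltransferase PS Ta.19849.1.S1_at gave 1222, 1394 and 1464 in Ofanto Ctrl, 1729, 1817 and 1858 in HS and 5486, 4285 and 5363 in CS, and 4522, 4522 and 4515 in Cappelli HS against 1456, 1722 and 1738 in its control. It rose by 1.89 (SE 0.15) in Ofanto CS and by 1.47 (SE 0.15) in Cappelli HS. The 2 diacylglycerol acyltransferase PSs, for an enzyme that consumes diacylglycerol to make storage lipid, rose in Cappelli HS, the first by 2.28 (SE 0.38), and in Cappelli CS by 2.33 (SE 0.38) and 1.63 (SE 0.42). Cappelli CS replicate 3 was far below the other arrays, at 1162 against 5654 and 3671 for Ta.5842.1.S1_at and at 395 against 2491 and 1781 for Ta.5842.2.S1_a_at, where it overlapped the controls. Without it the CS changes were 2.99 (SE 0.25) and 2.44 (SE 0.21). The phosphatidylserine synthase PS Ta.18536.1.A1_at fell by 1.02 (SE 0.18) in Ofanto CS, and the phosphatidylserine decarboxylase PS rose by 1.32 (SE 0.31) in Cappelli HS.

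**Figure D5:**
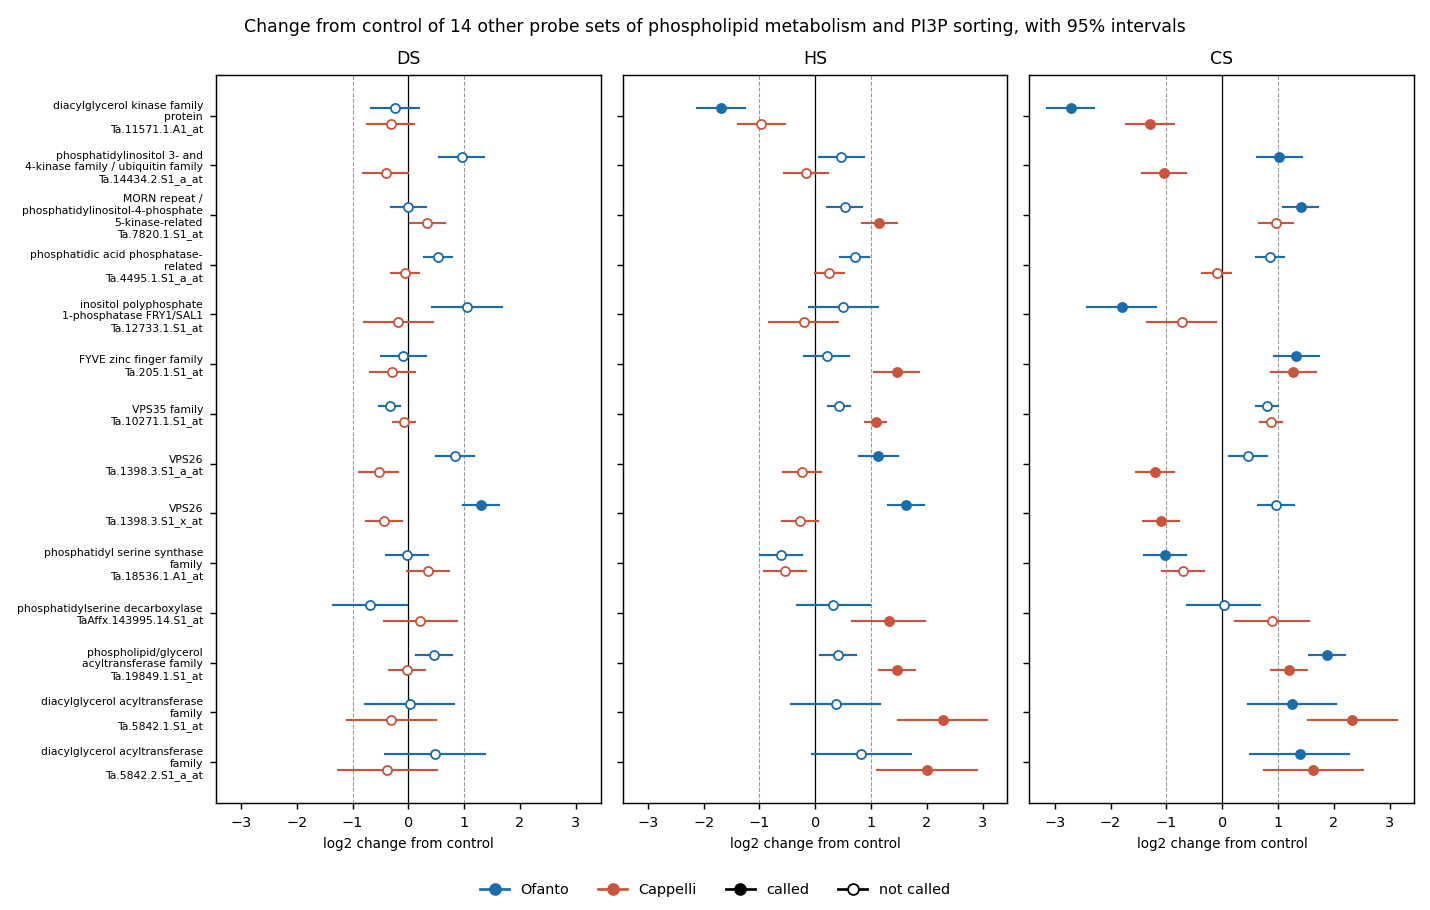
Log2 change from control, with 95% intervals, of the 14 further PSs under DS, HS and CS in each cultivar. Filled points passed both thresholds and dashed lines mark 2-fold. In Cappelli HS 7 PSs are filled to the right and none to the left, and in Ofanto CS 6 and 3.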

How the data were processed

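Leaf RNA of 24 samples was hybridised to Affymetrix GeneChip Wheat Genome Arrays. The deposited values are signal intensity values on a linear scale, 1 per PS and array, which the authors made with MAS5 (version not given in the sources used here) and scaled to a common trimmed mean. MAS5 subtracts mismatch probes, so low intensity values are uncertain. The methods describe RMA for the expression analysis, so these values are not those the study tested. Positions, probe sequences and detection calls were not used here. No column was left out, and the number of arrays per group (3) limits the precision.

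The 111 control PSs were set aside, and log2 signals without an offset were fitted with limma 3.58.1 in R 4.3.3 as 8 group means (16 residual degrees of freedom), for 28072 PSs above the filter on low values (45.9% of 61179). Across the groups 19 comparisons were made, with Benjamini-Hochberg adjustment over all fitted PSs, a threshold of adjusted p under 0.01 and 2-fold, and 95% intervals. Where control arrays were not above the 60th percentile of their array, a lower bound was taken with each such array set to that percentile. Tables and figures were made with Python 3.11.15, pandas 2.3.3 and matplotlib 3.10.9. The fit was tested on simulated data.

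All 11 PSs and all 14 further PSs were named by rule, and the members, lists and tests were chosen with earlier results of these data known. Alternatives were no filter, the 75th percentile, log2(signal + 50), median centring, quantile normalization, limma on only the groups compared, the methods' t-test (Welch, same thresholds), no minimum fold, the replicate number as a block, leaving out each array, and leaving out Ofanto control replicates 2 and 3. No 2 arrays were duplicates (the smallest mean absolute log2 difference was 0.85). Columns of the authors' own fold changes and p-values in the supplementary lists were not used.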

Additional observations from a re-analysis of the deposited data

Results flagged for a closer look

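A total of 5 results were singled out because the response of a PS to the same stress differed between the cultivars by the test of that difference in limma. In HS the log2 response of diacylglycerol kinase Ta.3010.1.A1_at differed by -1.22 (Ofanto minus Cappelli, SE 0.16, adjusted p = 3.1e-05), and that of PI(3,4)K by -1.32 (SE 0.30, adjusted p = 0.003). In CS the response was larger in Ofanto for PLD Ta.11144.1.A1_at (1.93, SE 0.27, adjusted p = 2.6e-05), for diacylglycerol kinase Ta.3876.1.A1_at (2.17, SE 0.46, adjusted p = 0.0014) and for PI4p5K Ta.5574.3.S1_at (1.02, SE 0.21, adjusted p = 0.001). Without Ofanto control replicates 2 and 3, which leaves a single Ofanto control array, the differences for PI(3,4)K (adjusted p = 0.043), Ta.3876.1.A1_at (adjusted p = 0.033) and Ta.5574.3.S1_at (adjusted p = 0.018) were not called. All groups had 3 arrays, too few to test single arrays for distance from the rest of their group.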

How the results depend on the processing

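The values under other settings are counts of the 11 PSs called. Where no share of all PSs stands beside a count, it shows only how the calls moved. Of 3498 alternative values for single PSs, 3336 kept their side of the thresholds, 90 lost and 72 gained a call. Of the values called in either setting 0 changed sign, and the sign of uncalled values was not compared. Without a filter the counts were 0 in Ofanto DS, 0 between cultivars in CS and 1 for the HS response difference, as PI(3,4)K no longer passed. With log2(signal + 50) they were 0 in Ofanto DS and 0 between cultivars in control. Median centring moved the median change of all PSs in Ofanto CS from -0.17 to 0.19 and in Ofanto HS from 0.02 to 0.22, and the counts to 5 in Ofanto HS, 11 in Ofanto CS, 3 for Ofanto CS against HS and 5 for the CS response difference, while the HS response difference kept 2 calls with PLD Ta.11144.1.A1_at in place of PI(3,4)K. Quantile normalization gave 3 for Ofanto CS against HS. Limma on only the groups compared gave 0 in Ofanto DS, 2 in Cappelli CS and 0 between cultivars in CS. The methods' t-test, with few degrees of freedom at 3 arrays against 3, gave 5 in Ofanto CS, 4 for Ofanto CS against DS and 0 in the other comparisons of 2 groups, among them Ofanto HS, Cappelli HS and Cappelli CS, where its p without adjustment gave 2, 6 and 2. Without a minimum fold 6 PSs passed upward in Ofanto HS (18.1% of all PSs), 11 in Ofanto CS (21.6%) and 8 in Cappelli CS (16.9%). For Ofanto CS against HS 7 passed upward (12.3%), and for Cappelli CS against DS 11 (13.9%). Between cultivars 3 were lower in Ofanto in control (15%) and 7 in HS (15.9%). In DS 1 was higher in Ofanto, near the share of all PSs (8.88%), and in CS 2 were (11.3%). The upward counts were 5 for the CS response difference (11%) and 4 for Ofanto CS against the sum (8.18%). Without Ofanto control replicates 2 and 3, which leaves 1 Ofanto control array assumed to vary like the other groups, they were 0 in Ofanto DS, 1 for the HS response difference and 2 for Ofanto CS against the sum.

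Leaving out 1 array at a time gave 0 to 1 in Ofanto DS, 0 to 1 for Cappelli CS against HS, and 0 to 1, 1 to 3 and 0 to 1 between cultivars in DS, HS and CS. The replicate numbers did not pair the arrays, as 0 of 84 same-numbered pairs had deviations correlated above 0.1 (from -0.25 to 0.07) and 9 of 24 arrays were closest to their own number. With the replicate block the counts were the same in all 19 comparisons, among them 3 in Ofanto HS, 6 in Ofanto CS, 8 in Cappelli HS and 4 in Cappelli CS. Signals near 107 to 144 limit the size of changes for 2 PSs in Ofanto control.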
